A study of Homo sapiens with 18 samples.

Results

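The transcripts described here are 10 long noncoding RNAs (lncRNAs), chosen by name: NEAT1, MALAT1, MIR210HG, H19, GAS5, PVT1, TUG1, SNHG1, SNHG12 and EPB41L4A-AS1. Of these 10, 9 were listed among the 23106 genes of the count files, and EPB41L4A-AS1 was not analysed here. After a filter on low counts, 8 of the 9 entered the tests of HKC-8 cells, 8 those of RCC4 cells and 9 those of HepG2 cells. H19 was the transcript that passed the filter in HepG2 cells alone.

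PolyA+ RNA was sequenced from 3 established human cell lines, each kept in normoxia or in hypoxia, in 6 groups of 3 replicates. HKC-8 is a line of renal proximal tubule cells, RCC4 a renal carcinoma line that lacks functional VHL of its own and HepG2 a hepatocellular carcinoma line. The RCC4 cells carried a stably transfected wild-type VHL gene in both conditions, so that oxygen could regulate HIF in them. No other allele or agent is given in the labels of the 18 samples.

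The labels give 0.5% oxygen for 16 h for hypoxic HKC-8 and HepG2 cells and 1% oxygen for 24 h for hypoxic RCC4 cells, whereas the study's text gives 0.5% for 16 h for the RNA-seq of all 3 lines. The titles of the HKC-8 samples state 21% oxygen in normoxia and 0.1% in hypoxia. The labels do not say whether replicates came from separate cultures, so p-values measure the spread between these samples, which may be technical. Each line was a separate experiment, so differences between lines cannot be told apart from differences between experiments.

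A lncRNA is transcribed by RNA polymerase II, spliced or not, and acts without being translated into a long protein. In hypoxia the hypoxia-inducible factors (HIF-1 and HIF-2, dimers of an oxygen-labile alpha subunit and HIF-1β) bind short DNA motifs, the hypoxia response elements, and raise the transcription of genes nearby, and VHL is the ubiquitin ligase subunit that marks the alpha subunit for destruction when oxygen is present. Among the lncRNAs here, NEAT1 builds the nuclear bodies called paraspeckles, MALAT1 resides in nuclear speckles, MIR210HG and H19 are host transcripts of microRNAs, and GAS5, SNHG1 and SNHG12 are hosts whose introns carry small nucleolar RNAs (snoRNAs), the guides of ribosomal RNA modification.

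The microRNAs carried by MIR210HG and H19 are shown because these were the 2 lncRNAs with the largest rises in hypoxia. Mature sequences are from RefSeq, 5′ to 3′, with the seed (bases 2 to 8) in capitals. The 4 seeds differed from each other.
hsa-miR-210-3p: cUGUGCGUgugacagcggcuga
hsa-miR-210-5p: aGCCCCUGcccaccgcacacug
hsa-miR-675-5p: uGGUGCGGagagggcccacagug
hsa-miR-675-3p: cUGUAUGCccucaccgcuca

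MIR210HG spans chr11:565657-568457 on the minus strand (GRCh37, GENCODE), and the MIR210 gene lies in its intron at chr11:568089-568198. PolyA+ libraries do not capture mature microRNAs, and the MIR210 gene itself had a total count of 1 over the 18 samples and MIR675 a count of 0. Over 25 microRNA and snoRNA genes known to lie in these lncRNAs other than PVT1, the highest count in any sample was 34, and 12 of the 25 were at 0 in every sample. MIR1205, MIR1207 and MIR1208, annotated inside PVT1, were at 0 in every sample as well. The values below are therefore those of the host transcripts.

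Promoters are shown for the lncRNA with the largest response and for 3 others with smaller responses. Each is the RefSeq sequence from 250 bases before to 50 bases after the annotated start, 5′ to 3′ on the gene's strand, placed on GRCh37 by exact match. The capitals mark the core of the hypoxia response element, which was searched on both strands in a form that starts with A (ACGTG) and in a form that starts with G instead (GCGTG). A palindromic site holds the form with A on both strands, overlapping, and was counted on each. The RefSeq table held promoters of 8 of the 10 lncRNAs.
MIR210HG, chr11:568408-568707, minus strand: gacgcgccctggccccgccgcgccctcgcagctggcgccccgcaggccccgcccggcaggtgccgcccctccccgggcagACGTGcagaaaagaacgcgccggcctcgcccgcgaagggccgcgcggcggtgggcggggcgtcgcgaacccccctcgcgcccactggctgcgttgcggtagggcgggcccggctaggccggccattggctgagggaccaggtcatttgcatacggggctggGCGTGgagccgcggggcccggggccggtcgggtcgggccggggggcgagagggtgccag
SNHG1, chr11:62623308-62623607, minus strand: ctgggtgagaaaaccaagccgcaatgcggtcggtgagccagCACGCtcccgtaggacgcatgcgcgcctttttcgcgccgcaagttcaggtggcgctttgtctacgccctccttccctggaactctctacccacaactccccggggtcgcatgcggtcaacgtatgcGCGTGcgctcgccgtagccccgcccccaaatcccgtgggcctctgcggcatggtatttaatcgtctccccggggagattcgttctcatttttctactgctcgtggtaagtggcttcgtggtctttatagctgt
SNHG12, chr1:28908336-28908635, minus strand: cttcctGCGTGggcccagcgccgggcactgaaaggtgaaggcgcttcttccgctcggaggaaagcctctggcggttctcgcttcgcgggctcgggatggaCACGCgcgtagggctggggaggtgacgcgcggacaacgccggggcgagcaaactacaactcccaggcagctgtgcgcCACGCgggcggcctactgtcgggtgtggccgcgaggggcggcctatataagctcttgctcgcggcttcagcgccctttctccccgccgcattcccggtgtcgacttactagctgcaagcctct
TUG1, chr22:31365001-31365300, plus strand: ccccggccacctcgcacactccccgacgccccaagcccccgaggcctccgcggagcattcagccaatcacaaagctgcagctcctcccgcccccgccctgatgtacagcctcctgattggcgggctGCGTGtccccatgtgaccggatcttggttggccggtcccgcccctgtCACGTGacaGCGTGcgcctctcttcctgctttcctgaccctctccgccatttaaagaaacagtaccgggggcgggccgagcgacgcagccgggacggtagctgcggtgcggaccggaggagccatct

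The MIR210HG window held 1 ACGTG, starting 170 bases before the start site, and 1 GCGTG, starting 9 bases before it. TUG1 held 4 cores, SNHG12 3 and SNHG1 2, while the windows of H19 and GAS5 held 0. MALAT1 held 2 and 1 in its separate windows, and EPB41L4A-AS1 held 1. The H19 window lay inside the annotated GENCODE span of H19, and the GAS5 window lay wholly upstream of the GENCODE span of GAS5. Each may miss the start in use. Of all 35116 promoters of this length, 21.4% held ACGTG, 36.5% GCGTG and 48.4% either core, and 23.1% held at least 2. TUG1 with 4 cores changed by at most 0.20 on the log2 scale, and MIR210HG with 2 by at least 3.23. Whether the cores bear on the response was not tested. A match describes the letters in this window only and is not evidence of binding. Many snoRNA hosts belong to a class of transcripts that open with a run of pyrimidines. From its RefSeq start SNHG12 had 11 C or T in a row, SNHG1 3 and GAS5 0, and 5.17% of all promoters had at least 5. The RefSeq start of GAS5 lay outside its GENCODE span, so its 0 may not describe the start in use.

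Sequencing depth lay between 40915980 and 97984260 counts in a sample, and HKC-8 libraries (75441764 to 97984260) were deeper than those of the other lines. Levels are given as CPM, the count scaled to a common library size with TMM factors over the 18 samples; they are not corrected for transcript length and are compared between samples, never between genes. Hypoxia control genes (CA9, VEGFA, NDRG1 and others) rose in 10 of 10 tested in HKC-8, 8 of 8 in RCC4 and 10 of 10 in HepG2 cells. CA9 and EGLN3 were not tested in RCC4 cells, where their hypoxic counts were at most 6 and 7 per sample. The summed level of 7 hepatocyte markers was 22438 to 28344 CPM in HepG2 samples and at most 11.2 CPM in the other samples, whereas 7 renal tubule markers summed to 916 to 1411 CPM in all 3 lines, a sum carried by the general epithelial keratin KRT18 (group means of 548 to 1257 CPM). PAX8, a renal lineage factor in that list, had group means of 119 to 165 CPM in HKC-8 and RCC4 cells and 9.43 to 11.9 CPM in HepG2 cells. The summed level of 3 leukocyte markers was at most 2.76 CPM and of 5 fibroblast markers at most 9.83 CPM in any sample.

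MIR210HG rose in hypoxia in every line and H19 rose in HepG2 cells, and each of the other 7 lncRNAs had a log2 fold change between -0.66 and 0.80 in each line. Of the 8 lncRNAs tested in HKC-8 cells, 2 were higher in hypoxia (MIR210HG and PVT1) and 0 lower at an edgeR adjusted p under 0.05, where 11.2% of all genes tested were called higher and 9.12% lower. With the replicate block, SNHG1 was added as lower, for 2 higher and 1 lower, where 21% and 21.6% of all genes were called. In RCC4 cells 5 of 8 were higher (MIR210HG, GAS5, PVT1, TUG1 and SNHG12) and 2 lower (NEAT1 and MALAT1), where 25.9% and 24.2% of all genes were called. In HepG2 cells 3 of 9 were higher (MIR210HG, H19 and TUG1) and 4 lower (NEAT1, MALAT1, PVT1 and SNHG1), where 19.9% and 19.2% of all genes were called. H19 entered that test through its hypoxic samples, at low counts. Over the lncRNAs tested the median log2 fold change was 0.12 for HKC-8, 0.21 for RCC4 and -0.23 for HepG2 cells, and over all genes it was 0.00 for each line.

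**Figure D1:**
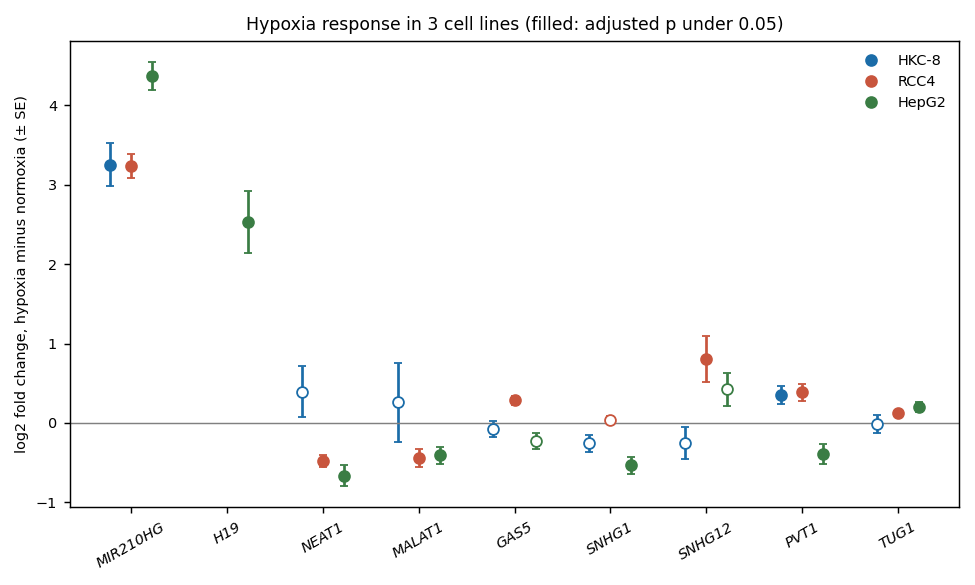
Log2 fold change, hypoxia minus normoxia, with its SE (y axis) for the 9 measured lncRNAs in HKC-8, RCC4 and HepG2 cells, with filled points for an edgeR adjusted p under 0.05. MIR210HG stands above 3 in all 3 lines and H19 at 2.53 in HepG2 cells, and the other 7 lie between -0.66 and 0.80.

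MIR210HG was the strongest responder of the set in every line. In HKC-8 cells it was at 1.68, 0.813 and 1.68 CPM in normoxia and 14.3, 10.6 and 14.8 CPM in hypoxia. Samples of RCC4 cells were at 0.79, 1.07 and 1.36 CPM in normoxia and 10.2, 10.1 and 9.56 CPM in hypoxia. Samples of HepG2 cells were at 0.567, 0.425 and 0.358 CPM in normoxia and 9.9, 9.53 and 8.61 CPM in hypoxia. All 9 hypoxic samples were above all 9 normoxic ones, and the hypoxic levels of the 3 lines lay closer together, as ratios, than the normoxic levels.

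HKC-8 cells showed a log2 fold change of 3.25 ± 0.27 (SE, edgeR adjusted p = 0.000124), a 9.51-fold rise. RCC4 cells showed 3.23 ± 0.15 (adjusted p = 1.98e-14), a 9.41-fold rise, and HepG2 cells 4.36 ± 0.18 (adjusted p = 5.31e-10), a 20.6-fold rise. Ranked by log2 fold change, it stood 44th of 13536 genes in HKC-8, 19th of 12811 in RCC4 and 30th of 13623 in HepG2 cells. The normoxic counts behind these folds were low, between 15 and 153 per sample. The 3 genes whose levels followed it most closely over the 18 samples, after the mean of each line was removed, were PPP1R3C, a glycogen-targeting phosphatase subunit (Pearson r = 0.992), P4HA1, a collagen prolyl hydroxylase subunit (r = 0.991), and PDK1, the kinase that inhibits pyruvate dehydrogenase (r = 0.99). These correlations include the hypoxic step that the samples share.

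The response of MIR210HG was 1.12 ± 0.37 (log2, SE) larger in HepG2 than in HKC-8 cells, which did not pass the test of the interaction of line and oxygen (edgeR adjusted p = 0.0723). It did pass once the replicate number was fitted as a block (1.09, adjusted p = 0.00774), with DESeq2 (1.13, adjusted p = 0.0193) and without normoxic HKC-8 replicate 2 (1.39, adjusted p = 0.00648). In the HKC-8 samples, replicate numbers were taken to pair the normoxic with the hypoxic samples, less clearly for replicate 1. The block of the interaction also paired the HepG2 samples by number, although their numbers were not taken to pair them. Of all 15046 genes in this test, 9.3% passed, and of the lncRNAs 1 passed, PVT1, described below. RASSF7, a Ras-association domain gene 1632 bases from MIR210HG on the opposite strand, rose by 0.48 ± 0.05 in RCC4 (adjusted p = 2.33e-08) and 0.77 ± 0.09 in HepG2 cells (adjusted p = 1.85e-05), with 0.42 ± 0.18 in HKC-8 cells (adjusted p = 0.129). PHRF1, a PHD finger gene 8013 bases from MIR210HG on its other side, passed the test in none of the 3 lines (log2 fold changes from -0.14 to 0.14).

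**Figure D2:**
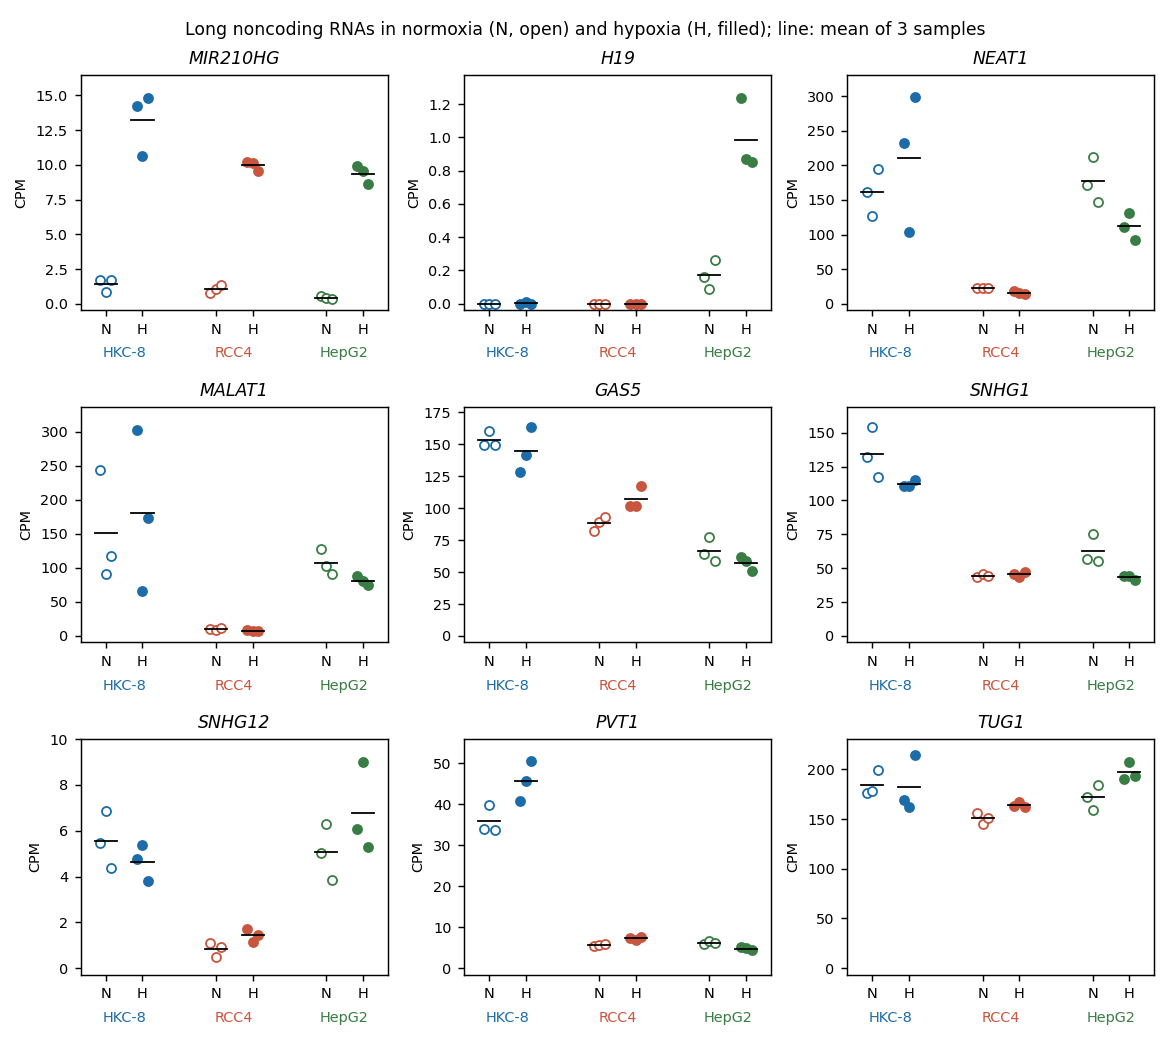
CPM of the 9 measured lncRNAs in each of 18 samples (y axis, linear, a scale for each panel), with normoxia (N, open) and hypoxia (H, filled) side by side for HKC-8, RCC4 and HepG2 cells and a line at the mean of 3 samples. MIR210HG rises in all 3 lines and H19 in HepG2 cells, and NEAT1 and MALAT1 are far lower in RCC4 cells than in the others.

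H19, the maternally expressed transcript of the imprinted IGF2 locus and host of miR-675, was at 0 counts in all 6 RCC4 samples and in 5 of 6 HKC-8 samples, with 1 count in hypoxic replicate 2. In HepG2 cells its counts were 7, 4 and 11 in normoxia and 52, 40 and 33 in hypoxia. These are 0.159, 0.0895 and 0.263 CPM in normoxia and 1.24, 0.868 and 0.853 CPM in hypoxia. Every hypoxic HepG2 sample was above every normoxic one, at low counts throughout. H19 passed the filter on low counts through the hypoxic samples, and its normoxic counts alone would not have passed. The adjusted p of its rise is therefore given as a description.

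H19 rose by 2.53 ± 0.39 on the log2 scale in HepG2 cells (5.77-fold, edgeR adjusted p = 0.000219). Normoxic HepG2 cells held at least 14.1-fold more H19 per total count than normoxic HKC-8 and at least 8.01-fold more than normoxic RCC4 cells, set against a floor of 3 counts over each group of 3 libraries. IGF2, the paternally expressed growth factor gene of the same imprinted cluster, rose in HepG2 cells from 558 ± 57.4 CPM (SD, n = 3) to 2244 ± 116 CPM, a log2 change of 2.01 ± 0.08 (adjusted p = 3.02e-10), while MRPL23, a mitochondrial ribosomal protein gene 10644 bases from H19, did not pass the test (0.12 ± 0.09, adjusted p = 0.31). H19 spans chr11:2016396-2025782 on the minus strand (GRCh37).

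NEAT1 and MALAT1 are abundant nuclear lncRNAs that neighbour each other, at chr11:65190245-65213011 and chr11:65265111-65275544 on the plus strand (GRCh37). Both were lower in hypoxia in RCC4 and in HepG2 cells, and in HKC-8 cells their replicates spread too widely for a difference to be called. Both carry long forms or ends that are not polyadenylated in the usual way, so polyA+ libraries sample them in part.

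In RCC4 cells NEAT1 was at 22.5, 22.5 and 22.2 CPM in normoxia and 18.2, 16.2 and 13.8 CPM in hypoxia. HepG2 samples were at 172, 212 and 147 CPM in normoxia and 111, 132 and 92.7 CPM in hypoxia. In both lines the groups did not overlap, with hypoxia lower. The log2 fold change was -0.48 ± 0.08 (SE, edgeR adjusted p = 2.15e-05) in RCC4 and -0.66 ± 0.13 (adjusted p = 0.00142) in HepG2 cells. Where all 18 samples shared 1 estimate of the spread, neither call held (adjusted p = 0.222 in RCC4 and 0.0518 in HepG2).

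In HKC-8 cells NEAT1 was at 162, 127 and 195 CPM in normoxia and 232, 103 and 298 CPM in hypoxia, so the groups overlapped, with hypoxic replicate 2 below every normoxic sample. Its log2 fold change was 0.39 ± 0.32 (SE, edgeR adjusted p = 0.418), and 0.29 with the replicate block (adjusted p = 0.124). Without hypoxic replicate 2 it was 0.72 (adjusted p = 0.02). The response in HepG2 was 1.05 ± 0.39 below that in HKC-8 cells (adjusted p = 0.11). That difference passed the test with the replicate block of both lines (-0.94, adjusted p = 0.0016) and without hypoxic HKC-8 replicate 2 (-1.39, adjusted p = 0.00261).

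MALAT1 in RCC4 cells was at 10.1, 8.94 and 11.5 CPM in normoxia and 8.55, 6.79 and 7.06 CPM in hypoxia. HepG2 samples were at 129, 103 and 90.8 CPM in normoxia and 87.5, 81.1 and 74.4 CPM in hypoxia. The groups did not overlap in either line, and hypoxia was lower. The log2 fold change was -0.44 ± 0.11 (SE, edgeR adjusted p = 0.00178) in RCC4 and -0.41 ± 0.10 (adjusted p = 0.0073) in HepG2 cells, and with a shared spread over 18 samples neither passed (adjusted p = 0.506 and 0.441).

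In HKC-8 cells MALAT1 was at 244, 91.6 and 118 CPM in normoxia and 303, 66.5 and 173 CPM in hypoxia. Replicate 1 was the highest and replicate 2 the lowest in both conditions, and the spread between replicates was far larger than the difference between conditions (0.26 ± 0.50, SE, edgeR adjusted p = 0.745). Over the 18 samples, with line means removed, NEAT1 and MALAT1 had a Pearson r of 0.70 with each other, a description over samples that share libraries and depth.

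**Figure D3:**
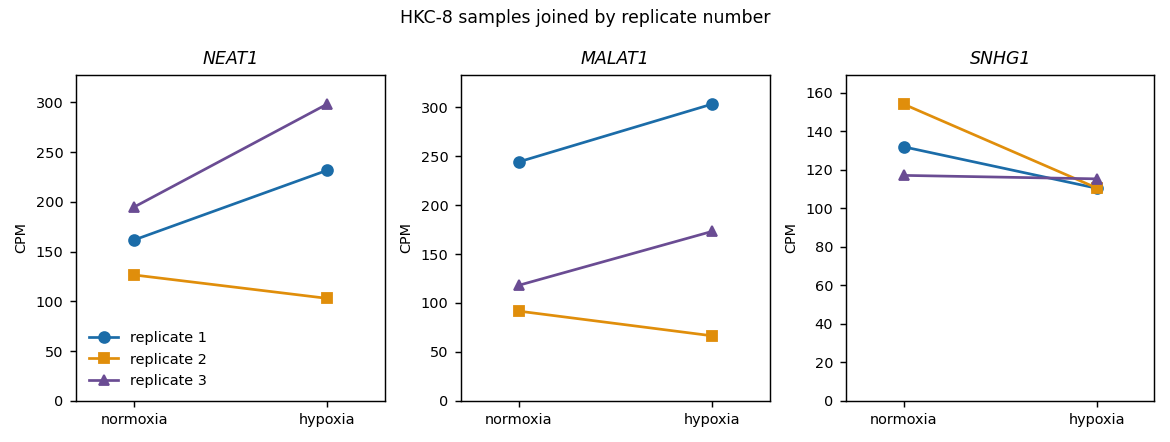
CPM (y axis, from 0) of NEAT1, MALAT1 and SNHG1 in the 6 HKC-8 samples, with normoxic and hypoxic samples of the same replicate number joined by a line. NEAT1 and MALAT1 are lower in hypoxia in replicate 2 and higher in replicates 1 and 3, whereas SNHG1 is lower in hypoxia in all 3.

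FRMD8, a FERM domain gene 9249 bases from NEAT1, fell by 0.22 ± 0.05 in RCC4 (log2, SE, edgeR adjusted p = 0.000473) and by 0.30 ± 0.08 in HepG2 cells (adjusted p = 0.00841).

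Of 12 paraspeckle proteins, which assemble on NEAT1 or are found with it, 0 rose and 2 fell in HKC-8, 1 rose and 6 fell in RCC4, and 3 rose and 0 fell in HepG2 cells. Of all genes tested, 11.2% rose and 9.12% fell in HKC-8, 25.9% and 24.2% in RCC4, and 19.9% and 19.2% in HepG2 cells. With the replicate block, 0 rose and 7 fell in HKC-8 cells, where 21.6% of all genes fell. SFPQ, a core paraspeckle protein, fell by 0.46 ± 0.10 in HKC-8 (edgeR adjusted p = 0.0138). HNRNPH3, an RNA-binding protein, fell there by 0.24 ± 0.07 (adjusted p = 0.0467). Those that fell in RCC4 cells included EWSR1 (-0.28) and RBM14 (-0.28), both RNA-binding proteins, and SFPQ (-0.23). In HepG2 cells HNRNPA1 (0.22), NONO (0.19) and DAZAP1 (0.18) rose. The medians over the 12 were -0.20, -0.09 and 0.05, against 0.00, 0.00 and 0.00 over all genes tested.

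The 3 snoRNA hosts differed between lines. GAS5 is known to accumulate when translation or growth is arrested, because its decay depends on translation. HKC-8 samples were at 149.8, 161 and 149.6 CPM in normoxia and 129, 142 and 164 CPM in hypoxia, and the groups overlapped. RCC4 samples were at 82.3, 89.3 and 92.8 CPM in normoxia and 101, 102 and 118 CPM in hypoxia. Levels in HepG2 cells were 64.2, 77.7 and 58.8 CPM in normoxia and 61.8, 58.6 and 50.9 CPM in hypoxia.

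GAS5 was thus higher in every hypoxic than in every normoxic RCC4 sample, with a log2 fold change of 0.28 ± 0.05 (SE, edgeR adjusted p = 0.000101). It had -0.08 ± 0.10 in HKC-8 (adjusted p = 0.603) and -0.23 ± 0.10 in HepG2 cells (adjusted p = 0.0907), where it passed with library totals (-0.32, adjusted p = 0.0195) or without normoxic replicate 3 (-0.32, adjusted p = 0.00839). With a shared spread over 18 samples the RCC4 call did not hold (adjusted p = 0.0566). GAS5 lies at chr1:173827697-173838020 on the minus strand and overlaps ZBTB37 on the opposite strand (GRCh37). The strand setting of the counting is not given in the sources used here, so reads of overlapping partners may not be separable. ZBTB37 passed the test in none of the 3 lines.

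SNHG1, the host of several box C/D snoRNAs, was at 132, 154 and 117 CPM in normoxia and 110.3, 111 and 115 CPM in hypoxia in HKC-8 cells. HepG2 samples were at 56.9, 75.3 and 55.1 CPM in normoxia and 44, 44.4 and 41.1 CPM in hypoxia. RCC4 samples were at 43.7, 45.8 and 44.4 CPM in normoxia and 46, 43.5 and 47.6 CPM in hypoxia. Hypoxic samples were below all normoxic ones in HKC-8 and HepG2 cells, and the groups overlapped in RCC4 cells.

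SNHG1 fell by 0.53 ± 0.11 on the log2 scale (SE, edgeR adjusted p = 0.00142) in HepG2 cells. In HKC-8 cells the log2 fold change was -0.26 ± 0.10 (adjusted p = 0.105) and passed only with the replicate block (-0.25, adjusted p = 0.0282) or with a shared spread over the 18 samples (adjusted p = 0.0479) or without normoxic replicate 3 (adjusted p = 0.0253). In RCC4 cells it was 0.04 ± 0.05 (adjusted p = 0.536). SNHG1 lies at chr11:62619450-62623425 on the minus strand, and SLC3A2, the heavy chain of amino acid transporters, lies 51 bases away on the opposite strand (GRCh37).

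SLC3A2 rose by 0.70 ± 0.10 in HKC-8 (log2, SE, edgeR adjusted p = 0.00262) and by 0.39 ± 0.04 in RCC4 cells (adjusted p = 7.66e-09), with -0.12 ± 0.07 in HepG2 cells (adjusted p = 0.177). WDR74, a ribosome biogenesis gene on the SNHG1 strand, fell by 0.61 ± 0.17 in HKC-8 (adjusted p = 0.0358), by 0.13 ± 0.05 in RCC4 (adjusted p = 0.0248) and by 0.22 ± 0.07 in HepG2 cells (adjusted p = 0.0213). The pair of neighbours therefore went in opposite directions in HKC-8 and RCC4 cells.

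SNHG12 was at 5.44, 6.85 and 4.39 CPM in normoxia and 4.78, 5.36 and 3.8 CPM in hypoxia in HKC-8 cells. Its RCC4 levels were 1.09, 0.477 and 0.913 CPM in normoxia and 1.71, 1.16 and 1.43 CPM in hypoxia, from counts of 24 to 83. Its HepG2 levels were 5.03, 6.29 and 3.87 CPM in normoxia and 6.07, 9.01 and 5.28 CPM in hypoxia. The groups were separate in RCC4 cells alone, with hypoxia higher.

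SNHG12 had a log2 fold change of 0.80 ± 0.29 (SE, edgeR adjusted p = 0.0255) in RCC4, -0.25 ± 0.20 (adjusted p = 0.398) in HKC-8 and 0.42 ± 0.21 (adjusted p = 0.121) in HepG2 cells. The call in RCC4 cells was lost without normoxic replicate 2 (0.52, adjusted p = 0.166), hypoxic replicate 1 (0.66, adjusted p = 0.113) or hypoxic replicate 3 (0.81, adjusted p = 0.0501), and with a shared spread over 18 samples (adjusted p = 0.0789). HepG2 cells passed without normoxic replicate 2 (0.62, adjusted p = 0.04). The response in HepG2 minus that in HKC-8 cells was 0.68 ± 0.32 (adjusted p = 0.218), and 0.67 with the replicate block of both lines (adjusted p = 0.011). SNHG12 lies at chr1:28905050-28909644 on the minus strand and overlaps TRNAU1AP on the opposite strand (GRCh37). TRNAU1AP, a selenocysteine tRNA-associated protein gene, rose by 0.34 ± 0.07 in RCC4 cells too (adjusted p = 0.0003), and how far the pair share reads was not tested. TAF12, a general transcription factor subunit on its other side, fell by 0.41 ± 0.12 in HKC-8 (adjusted p = 0.0401) and by 0.28 ± 0.10 in RCC4 cells (adjusted p = 0.0221).

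The files listed 18 other snoRNA hosts. Of these, 0 rose and 2 fell in HKC-8 cells (1 and 6 with the replicate block), 4 rose and 3 fell in RCC4 cells, and of 17 tested in HepG2 cells 1 rose and 6 fell. Of all genes, 11.2% rose and 9.12% fell in HKC-8 cells (21% and 21.6% with the block), 25.9% rose and 24.2% fell in RCC4 cells, and 19.9% rose and 19.2% fell in HepG2 cells. Their median log2 fold change was -0.22, 0.01 and -0.15. DANCR fell by 0.71 ± 0.17 in HKC-8 (SE, edgeR adjusted p = 0.0219), 0.39 ± 0.05 in RCC4 (adjusted p = 4.29e-07) and 0.31 ± 0.06 in HepG2 cells (adjusted p = 0.0019). SNHG3 fell by 0.28 ± 0.08, 0.23 ± 0.07 and 0.33 ± 0.10 in the same order (adjusted p = 0.0422, 0.0131 and 0.0224). The HepG2 values of DANCR and SNHG3 were picked after they were seen, because these were the 2 hosts that fell in all 3 lines.

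Among the others, SNHG5 (0.56) and TAF1D (0.32), whose protein is a subunit of the RNA polymerase I selectivity factor, rose in RCC4 cells. SNHG9 (-1.95 ± 0.51, SE, edgeR adjusted p = 0.00798), SNHG4 (-0.59) and LINC00338, the former name of SNHG20 (-0.41), fell in HepG2 cells, and SNHG7 rose there (0.36). The fall of SNHG9 rests on counts near the floor, 10 to 33 per sample in normoxia and 4 to 8 in hypoxia. EIF4A2, NCL and TAF1D in this list are protein-coding hosts.

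**Figure D4:**
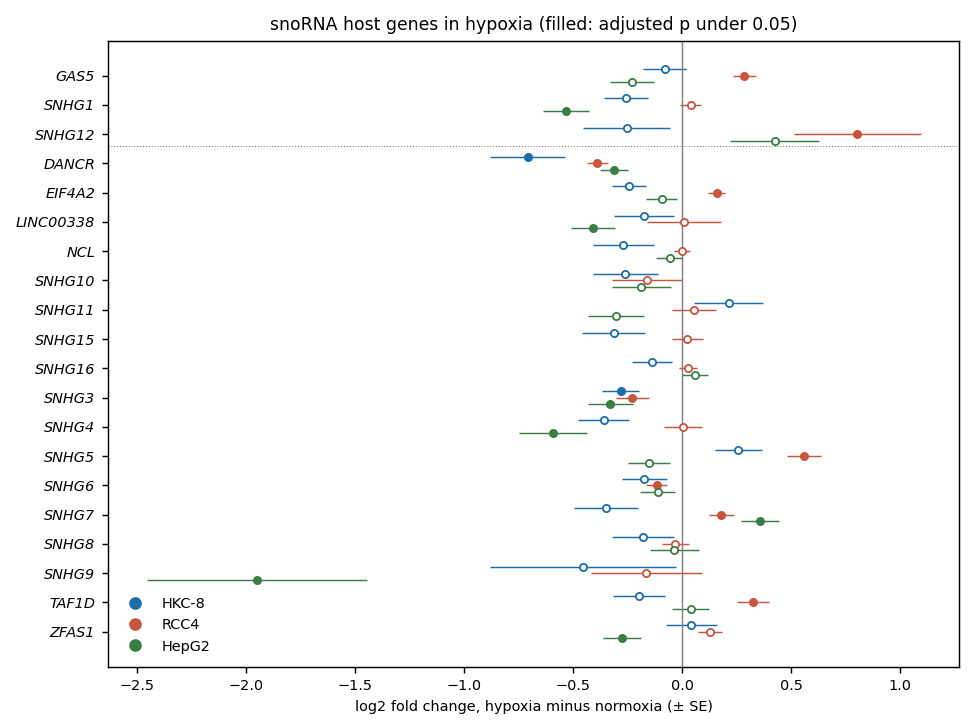
Log2 fold change, hypoxia minus normoxia, with its SE (x axis) for GAS5, SNHG1, SNHG12 and, under the dotted line, 17 of the 18 other snoRNA host genes in HKC-8, RCC4 and HepG2 cells, with filled points for an edgeR adjusted p under 0.05. DANCR and SNHG3 are lower in all 3 lines, and GAS5 and SNHG5 are higher in RCC4 cells.

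PVT1, a lncRNA that begins near the MYC oncogene (its annotated start is 51575 bases from the end of MYC) and hosts a further cluster of microRNAs, went in opposite directions in different lines. In HKC-8 cells it was at 34, 39.7 and 33.7 CPM in normoxia and 40.8, 45.6 and 50.4 CPM in hypoxia. The RCC4 samples were at 5.41, 5.54 and 5.94 CPM in normoxia and 7.38, 6.95 and 7.64 CPM in hypoxia. The HepG2 samples were at 5.91, 6.67 and 6.18 CPM in normoxia and 5.12, 4.82 and 4.34 CPM in hypoxia. Conditions did not overlap in any line, with hypoxia higher in HKC-8 and RCC4 cells and lower in HepG2 cells.

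PVT1 rose by 0.35 ± 0.11 on the log2 scale in HKC-8 cells (SE, edgeR adjusted p = 0.0477) and by 0.39 ± 0.11 in RCC4 cells (adjusted p = 0.00398), and it fell by 0.39 ± 0.12 in HepG2 cells (adjusted p = 0.0224). The HKC-8 call was lost without normoxic replicate 1 or 3 or any of the 3 hypoxic replicates (0.27 to 0.43), and the HepG2 call without normoxic replicate 2 or hypoxic replicate 2 or 3 (-0.40 to -0.33). The response in HepG2 was 0.74 ± 0.16 below that in HKC-8 cells (interaction, adjusted p = 0.00686). MYC rose by 0.68 ± 0.12 in HKC-8 (adjusted p = 0.0061) and by 0.25 ± 0.04 in RCC4 cells (adjusted p = 6.32e-06), and it had -0.06 ± 0.06 in HepG2 cells (adjusted p = 0.43).

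TUG1, a lncRNA that associates with chromatin-modifying complexes and is also found in the cytoplasm, changed by at most 0.20 on the log2 scale. GENCODE v44 types TUG1 as protein-coding, and it is kept here by name. In HKC-8 cells it was at 176, 178 and 199.6 CPM in normoxia and 169, 162 and 214 CPM in hypoxia. Levels in RCC4 cells were 156, 145 and 151 CPM in normoxia and 163, 167 and 162 CPM in hypoxia. In HepG2 cells it was at 173, 159 and 184 CPM in normoxia and 190.0, 208 and 193 CPM in hypoxia. The groups overlapped in HKC-8 cells and were separate, with hypoxia higher, in the others.

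TUG1 rose by 0.13 ± 0.04 on the log2 scale in RCC4 cells (SE, edgeR adjusted p = 0.00619) and by 0.20 ± 0.06 in HepG2 cells (adjusted p = 0.0271), and it had -0.02 ± 0.11 in HKC-8 cells (adjusted p = 0.932). Scaled by library totals alone, it was 0.04 (adjusted p = 0.334) in RCC4 and 0.10 (adjusted p = 0.222) in HepG2 cells, so neither rise held under that scaling, nor with a shared spread over 18 samples (adjusted p = 0.353 and 0.0911). The RCC4 call was also lost without normoxic replicate 2 (0.10), and the HepG2 call without normoxic replicate 1 or 2 or hypoxic replicate 2 or 3 (0.15 to 0.21). MORC2, an ATPase gene 471 bases from TUG1 on the opposite strand at chr22:31365231-31375381 (GRCh37), passed the test in none of the 3 lines.

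Normoxic levels differed between the lines by up to 14.8-fold. RCC4 cells held 7.13-fold less NEAT1 and 14.8-fold less MALAT1 than HKC-8 cells (log2 differences -2.83 ± 0.16 and -3.88 ± 0.30, SE, edgeR adjusted p = 7.21e-10 and 3.37e-08). They held 7.95-fold less NEAT1 and 10.6-fold less MALAT1 than HepG2 cells. HKC-8 and HepG2 cells were not told apart in NEAT1 (0.16 ± 0.14, adjusted p = 0.318) or MALAT1 (-0.47 ± 0.26, adjusted p = 0.111), although MALAT1 did differ without HKC-8 normoxic replicate 2 (-0.79, adjusted p = 0.00458) or 3 (-0.68, adjusted p = 0.0195).

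PVT1 was highest in HKC-8 cells, 6.31-fold above RCC4 and 5.64-fold above HepG2 cells (log2 difference of RCC4 from HKC-8 -2.66 ± 0.11, SE, edgeR adjusted p = 2.9e-11 and 4e-11), and RCC4 and HepG2 cells were not told apart (0.16 ± 0.11, adjusted p = 0.184). SNHG12 was lowest in RCC4 cells, 6.68-fold below HKC-8 (adjusted p = 6.79e-07) and 6.18-fold below HepG2 cells (adjusted p = 1.19e-06). SNHG1 descended from HKC-8 to HepG2 to RCC4 cells, with 2.12-fold (adjusted p = 1.17e-06) between the highest and the middle and 1.41-fold (adjusted p = 0.00166) between the middle and the lowest. GAS5 descended from HKC-8 to RCC4 to HepG2 cells, with 1.73-fold (adjusted p = 2.47e-06) and 1.31-fold (adjusted p = 0.00158).

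MIR210HG in normoxia was lower in HepG2 than in HKC-8 (3.04-fold, edgeR adjusted p = 0.000771) and RCC4 cells (2.35-fold, adjusted p = 0.00674), and HKC-8 and RCC4 cells were not told apart (adjusted p = 0.29), except without HKC-8 normoxic replicate 2 (adjusted p = 0.0485). TUG1 differed least, by 1.21-fold between HKC-8 and RCC4 cells (adjusted p = 0.00317) and 1.15-fold between HepG2 and RCC4 cells (adjusted p = 0.0249), and the latter was lost with DESeq2 (adjusted p = 0.0547), with median-of-ratios size factors (adjusted p = 0.0581), with library totals (adjusted p = 0.0599), and without normoxic replicate 2 of HKC-8, 2 or 3 of RCC4 or 1 or 3 of HepG2 cells (0.14 to 0.19 on the log2 scale). In all, 7 of 8 lncRNAs differed between RCC4 and HKC-8 cells, where 80.8% of all genes did, 4 of 8 between HepG2 and HKC-8 cells, where 83% did, and 7 of 8 between HepG2 and RCC4 cells, where 83.3% did.

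**Figure D5:**
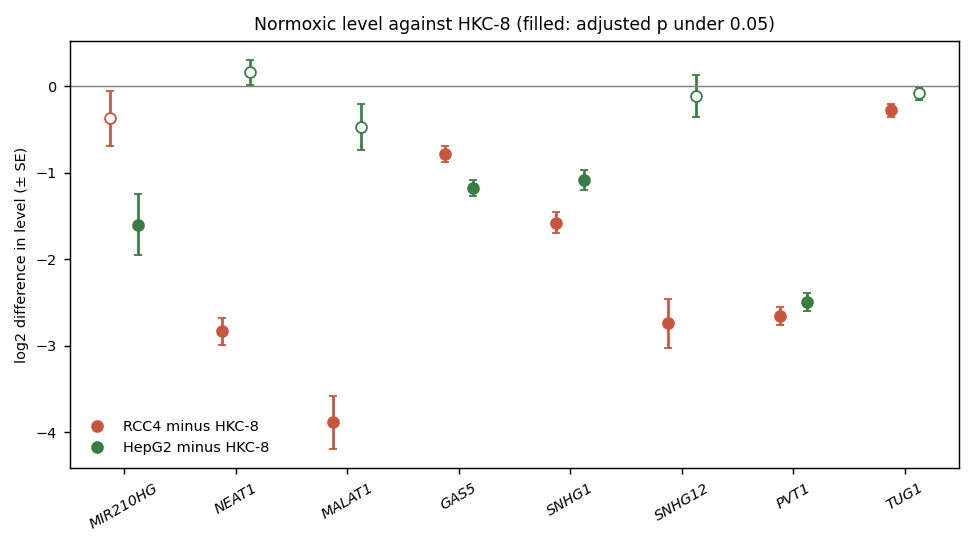
Log2 difference in normoxic level from HKC-8 cells, with its SE (y axis), for 8 lncRNAs in RCC4 and HepG2 cells, with filled points for an edgeR adjusted p under 0.05. NEAT1, MALAT1, PVT1 and SNHG12 lie more than 2 below HKC-8 in RCC4 cells, and in HepG2 cells only PVT1 does.

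Other lncRNAs linked to hypoxia moved less than MIR210HG. Of 13 listed in the files, 6, 9 and 7 were tested in HKC-8, RCC4 and HepG2 cells. Beside the calls below, 11.2%, 25.9% and 19.9% of all genes were called higher in these lines and 9.12%, 24.2% and 19.2% lower. With the replicate block, 21% were called higher and 21.6% lower in HKC-8 cells. In HKC-8 cells LINC00152 rose by 0.43 ± 0.13 (log2, SE, edgeR adjusted p = 0.0493) and 0 fell (2 rose and 0 fell with the replicate block). In RCC4 cells UCA1 rose by 0.30 ± 0.06 (adjusted p = 0.000221) and LINC00657, also called NORAD, by 0.13 ± 0.03 (adjusted p = 0.00343), while MIR31HG fell by 0.40 ± 0.12 (adjusted p = 0.00951). In HepG2 cells LINC00511 rose by 1.27 ± 0.20 (adjusted p = 0.000261), UCA1 by 0.64 ± 0.11 (adjusted p = 0.000533) and LINC00657 by 0.35 ± 0.07 (adjusted p = 0.00234), and 0 fell.

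Of 12 other microRNA host lncRNAs listed in the files, 10, 8 and 6 were tested in the 3 lines. Of these, 0 rose and 4 fell in HKC-8 cells, 1 rose and 2 fell in RCC4 cells, and 1 rose and 3 fell in HepG2 cells, beside the 9.12%, 24.2% and 19.2% of all genes that were called lower in these lines. The shares of all genes called higher were 11.2%, 25.9% and 19.9%. With the replicate block, 1 rose and 4 fell in HKC-8 cells, where 21% and 21.6% of all genes were called. DLEU2, host of miR-15a and miR-16, fell by 0.90 ± 0.16 in HKC-8 (log2, SE, edgeR adjusted p = 0.00688), 0.64 ± 0.17 in RCC4 (adjusted p = 0.00326) and 0.89 ± 0.17 in HepG2 cells (adjusted p = 0.00135). MIR22HG fell by 0.43 ± 0.09 in HKC-8 (adjusted p = 0.0121) and 0.92 ± 0.13 in HepG2 cells (adjusted p = 8.96e-05). MIR100HG (-1.84 ± 0.56, adjusted p = 0.0458) and LINC00478 (-0.79) fell in HKC-8 cells, and DLEU1 fell in RCC4 (-0.24) and HepG2 cells (-0.34). The fall of MIR100HG rested on low counts, 31 to 81 per sample in normoxia and 8 to 31 in hypoxia. MIR100HG passed the filter on low counts through its normoxic samples, so its adjusted p is given as a description. MIR155HG rose by 1.20 ± 0.11 in RCC4 (adjusted p = 2.46e-09) and MIR143HG by 1.53 ± 0.29 in HepG2 cells (adjusted p = 0.000974).

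EPB41L4A-AS1 itself was not analysed here, but its protein-coding neighbours were. NREP, a neuronal regeneration-related gene 163062 bases away, rose by 0.74 ± 0.13 in HKC-8 (log2, SE, edgeR adjusted p = 0.00525), 0.73 ± 0.07 in RCC4 (adjusted p = 4.68e-09) and 1.25 ± 0.06 in HepG2 cells (adjusted p = 5.85e-09). EPB41L4A, the overlapping gene on the opposite strand, rose by 1.04 ± 0.07 in RCC4 cells (adjusted p = 5.54e-12) and passed the test in neither of the other lines (0.09 ± 0.14 in HKC-8 and 0.04 ± 0.22 in HepG2). The snoRNA gene SNORA13 inside EPB41L4A-AS1 had at most 4 counts in any sample.

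The 3 genes most like each of the other lncRNAs over the 18 samples, with line means removed, had lower correlations than those of MIR210HG. For H19 they were FXYD3 (Pearson r = 0.987), RNF183 (0.982) and FAM84A (0.972), in values that rest on the HepG2 samples. For TUG1 they were NUBPL (0.936), AP3B1 (0.918) and TOP2B (0.899), and for SNHG1 they were ASNSD1 (0.933), GMNN (0.926) and CMSS1 (0.918). For MALAT1 they were TMEM68 (0.904), KIAA1919 (0.856) and RING1 (0.853), and for NEAT1 C18orf32 (0.886), PIH1D2 (0.88) and SPIN3 (0.878). For GAS5 they were RPL9 (0.857), ZNF14 (0.838) and TMEM14C (0.816), for PVT1 DOCK2 (0.848), PLCD3 (0.847) and NSUN4 (0.842), and for SNHG12 CSGALNACT1 (0.783), FBXL21 (0.77) and HIST1H2AE (0.752). These were the highest values over all genes and are given as a description.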

How the data were processed

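PolyA+ RNA libraries (ScriptSeq v2 kit) of 18 samples were used. The authors trimmed reads with Trim Galore 0.3.3, aligned them to GRCh37 with TopHat2 2.0.8b and Bowtie 1.0.0, removed non-unique fragments with SAMtools 0.1.19, counted reads per UCSC gene with HTSeq 0.5.4p3 in its strict intersection mode, and deposited raw counts without normalization. Per the labels, HKC-8 samples were split over lanes. Total counts were 40915980 to 97984260 per sample. CPM are less precise at low counts, and the floor is 3 counts.

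From the counts, R 4.3.3 with edgeR 4.0.16 (filterByExpr, TMM, glmQLFit, glmQLFTest) compared hypoxia with normoxia in each line, the response in HepG2 with that in HKC-8 cells, and normoxic levels between lines, with Benjamini-Hochberg adjustment over all genes tested and a threshold of 0.05. RCC4 cells were left out of the interaction because their labels give another exposure. Alternatives were DESeq2 1.42.0, other scalings and filters, 1 fit of 18 samples, the replicate block and each sample left out. The replicate numbers come from the labels. Deviations of same-numbered HKC-8 samples from their group means correlated across genes (r = 0.108, 0.456 and 0.449), so the numbers were taken to pair them; those of RCC4 (-0.01, 0.04 and 0.02) and HepG2 (0.17, 0.06 and 0.18) did not all exceed 0.1. On simulated data 91.9% of 197 changed genes tested were recovered in HKC-8 (13437 genes) and 97% of 200 in RCC4 (12747 genes). The shares were 95.4% of 197 in HepG2 (13533 genes) and 85.2% of 196 for the interaction (14742 genes). Of the calls, in that order, 5.73%, 3.48%, 5.05% and 8.74% fell on unchanged genes. All changed genes were simulated with a change of the same size, larger than any measured for the lncRNAs other than MIR210HG and H19. Recovery at log2 fold changes as small as those of the lncRNAs other than MIR210HG and H19 was not tested.

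The lncRNAs and the gene lists were chosen with earlier results of these data known. All of the 10 lncRNAs are named, with up to 4 called genes of the largest change per list and line, the neighbours of each lncRNA, and the 3 most similar genes; a few genes that these rules name are not reported here. Positions are from GENCODE v44 on GRCh37 and sequences from RefSeq (GRCh38.p14), read with Python 3.11.15.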

Additional observations from a re-analysis of the deposited data

Results flagged for a closer look

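The response of PVT1 to hypoxia in HepG2 cells minus that in HKC-8 cells was -0.74 ± 0.16 on the log2 scale (edgeR interaction term, adjusted p = 0.00686), with every hypoxic HKC-8 sample above and every hypoxic HepG2 sample below all normoxic samples of its line. It was singled out because the responses of the 2 lines differed by a test of the difference itself. In all 3 lines PVT1 rested on counts of at least 168 per sample.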

How the results depend on the processing

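The number of lncRNAs called depended most on how the spread was estimated. With 1 fit of 18 samples, 1 was lower in HKC-8 cells, 2 were higher and 0 lower in RCC4 cells, and 2 were lower in HepG2 cells. With the replicate block, 1 was lower in HKC-8 cells (SNHG1), and for the response in HepG2 minus that in HKC-8 cells 2 were higher and 2 lower; DESeq2 gave 1 higher there. In HepG2 cells replicate numbers were not taken to pair samples, although the block of the interaction used them as well. There the replicate block added GAS5 as lower (-0.22, edgeR adjusted p = 0.0237) and SNHG12 as higher (0.41, adjusted p = 0.00955). In RCC4 cells the block changed no call of a lncRNA. With single samples left out, the number higher in HKC-8 cells was 1 to 2 and lower 0 to 1, the number higher in RCC4 cells 3 to 5, and for the difference between HepG2 and HKC-8 cells 0 to 1 higher and 1 to 2 lower. Signs turned for values that were not called in the main comparison: TUG1 in HKC-8 cells with upper-quartile scaling (0.0204) and with samples left out (-0.153 to 0.0601), MALAT1 in HKC-8 cells with samples left out (-0.331 to 0.785), SNHG1 in RCC4 cells with library totals (-0.0439), and the normoxic difference of HepG2 from HKC-8 cells with samples left out for NEAT1 (-0.0549 to 0.272), MALAT1 (-0.791 to 0.0476) and SNHG12 (-0.358 to 0.0473). The causes were not tested. Other scalings moved the median of all genes by at most 0.09 on the log2 scale. Counts were low for H19 in HepG2 cells, SNHG12 in RCC4 cells and MIR210HG in normoxia, which limits their precision. The same holds, among the other hosts, for SNHG9 in HepG2 and MIR100HG in HKC-8 cells.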
